A study of Homo sapiens with 15 samples.

Results

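A set of 10 genes that govern the balance between epithelial and mesenchymal states was followed in each of 15 RNA-seq libraries of MCF-10A cells. They are 5 mesenchymal transcription factors (ZEB1, ZEB2, SNAI1, SNAI2 and TWIST1) and 5 epithelial regulators (ESRP1, ESRP2, GRHL2, OVOL1 and OVOL2). The genes were listed by name out of 60721 gene identifiers in the count table, and all 10 have a row. SNAI1 was the only member whose level passed the test with all libraries: it was highest in the empty vector cells and lower in each of the other 4 genotypes. ESRP1 spanned 0.0289 to 86.6 CPM (counts scaled by the library total), and its largest differences lay between libraries of the same genotype as well as between genotypes. SNAI2 was abundant and nearly flat, and GRHL2 was at 0 in 14 of the 15 libraries.

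The epithelial-mesenchymal transition (EMT) is the conversion of cells that are joined by E-cadherin junctions into separate, migratory cells. SNAIL (SNAI1), SLUG (SNAI2) and the ZEB proteins are zinc-finger repressors that bind E-box sequences in epithelial genes such as CDH1, and TWIST1 is a basic helix-loop-helix factor that works with them. ESRP1 and ESRP2 are RNA-binding proteins that hold transcripts such as FGFR2 and CD44 in their epithelial splice forms. GRHL2 activates epithelial junction genes, and OVOL1 and OVOL2 are zinc-finger proteins that repress ZEB1. ZEB proteins and the microRNAs of the miR-200 family repress each other. In the mammary gland, SLUG is also a factor of the basal epithelial layer, so its presence alone does not mark a mesenchymal cell.

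MCF-10A is a non-tumorigenic human mammary epithelial cell line. The 5 genotypes were parental cells, cells with an empty vector, and cells edited at NF1 with guide RNA 1, with guide RNA 2, or with both guides. Each genotype has 3 libraries, labelled as biological replicates, of untreated cells in medium with horse serum, EGF, hydrocortisone, cholera toxin and insulin. NF1 encodes neurofibromin, a protein that switches RAS off. Whether an edited line is a clone or a pool, and how far the replicate cultures were kept apart, is not given in the sources used here, so p-values measure only the spread between these libraries.

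NF1 itself checked the labels: it was 115 to 159 CPM in the 6 unedited libraries and 26.0 to 51.3 CPM in the 9 edited libraries, with no overlap. Library totals ran from 46129559 to 78976917 counts, so 3 counts, taken as the smallest detectable level, were 0.038 to 0.065 CPM. Such floors and the counting intervals given here cover counting error only. By a chi-square test on genes with enough counts, 76.6% and 76.8% differed beyond counting noise between guide 2 replicate 2 and the other guide 2 replicates, against 24.6% to 65.8% for all other replicate pairs. Results are therefore given with all libraries and, for the members and some of the gene lists, also without guide 2 replicate 2. KRT5, a basal keratin, was 625 CPM or more in every library. The leukocyte markers summed to 0.173 CPM or less in every library, with CD3E at 0 throughout. The fibroblast list summed to 437 to 1105 CPM with guide 1 and 103 to 146 CPM with the empty vector, mostly from DCN. PDGFRA, COL3A1 and THY1 stayed under 1 CPM, while PDGFRB reached 3.62, COL1A1 20.0 and LUM 1.54 CPM. In a fit with the replicate number as a block, DCN and LUM were higher with guide 1 than with the empty vector. They were at 2.86 ± 0.60 and 2.56 ± 0.52 log2 units (edgeR, adjusted p = 0.0337 and 0.0294). COL1A1 was lower at -1.59 ± 0.38 (edgeR, adjusted p = 0.0480), where 3.25% of genes were called. The basal list, KRT5 included, summed to 4555 to 6560 CPM with the empty vector, 1681 to 2724 CPM with guide 1, 2011 to 9094 CPM with guide 2 (highest in replicate 2), 2536 to 2752 CPM with both guides and 1946 to 5281 CPM in parental cells. The luminal list summed to 279 to 383 CPM and the endothelial list to 2.42 to 12.7 CPM over all libraries. Whether other cell types had a part in the results was not tested. In bulk RNA, fewer cells of a type and less RNA per cell cannot be told apart.

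The E-box bound by the SNAIL, SLUG and ZEB repressors reads CAGGTG on one strand and CACCTG on the other. RefSeq promoter windows (GRCh38.p14) could be matched for ZEB1 and ZEB2 among the members, for 8 of the 14 epithelial genes followed here as their known targets, and for both microRNA host RNAs. The motif stood in windows of ZEB1 and not in that of ZEB2, and in 7 of the 8 epithelial genes. By windows of 300 bases, of which a gene can have several, it was in 8 of 11 for the epithelial genes and in 2 of 8 for ZEB1 and ZEB2, against 20.6% of 35116 windows over all genes. The GRHL site AACCGGTT, found in 0.134% of those windows, was in none of them. A match is a description of letters and not evidence of binding. Printed below are the 250 bases before an annotated start of ZEB1 (chr10:31318167-31318416, plus strand). ZEB1 has several such starts, most without the motif, and this window was chosen because it holds the motif. Also printed are those before the start of RAB25 (chr1:156060910-156061159, plus strand), an epithelial target that, like SNAI1, was highest with the empty vector. The last are those before the start of MIR200CHG (chr12:6962995-6963244, plus strand), the host RNA of miR-200c and miR-141. Capitals mark the E-box, which begins 57, 41 and 78 bases before the respective start.
ZEB1: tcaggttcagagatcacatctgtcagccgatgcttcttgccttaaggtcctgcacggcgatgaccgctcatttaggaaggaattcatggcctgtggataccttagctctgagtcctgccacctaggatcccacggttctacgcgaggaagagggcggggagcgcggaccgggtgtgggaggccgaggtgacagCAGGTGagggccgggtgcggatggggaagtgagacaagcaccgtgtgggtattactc
RAB25: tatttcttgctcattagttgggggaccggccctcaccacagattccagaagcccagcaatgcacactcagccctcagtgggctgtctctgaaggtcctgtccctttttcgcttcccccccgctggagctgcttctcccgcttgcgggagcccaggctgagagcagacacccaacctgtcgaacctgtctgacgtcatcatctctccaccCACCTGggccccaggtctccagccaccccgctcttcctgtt
MIR200CHG: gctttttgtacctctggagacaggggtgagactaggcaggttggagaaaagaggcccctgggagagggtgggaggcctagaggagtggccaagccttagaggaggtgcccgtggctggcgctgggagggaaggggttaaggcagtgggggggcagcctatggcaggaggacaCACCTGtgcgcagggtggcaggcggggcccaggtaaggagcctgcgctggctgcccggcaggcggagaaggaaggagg

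The mature microRNAs made from the host RNAs measured here are shown because ZEB1 and ZEB2 transcripts are their known targets. Capitals mark the seed, bases 2 to 8. The seeds of miR-200c-3p and miR-141-3p differ from each other, and that of miR-205-5p is unrelated. Mature microRNAs were not measured.
hsa-miR-200c-3p: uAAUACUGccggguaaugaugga
hsa-miR-141-3p: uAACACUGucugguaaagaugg
hsa-miR-205-5p: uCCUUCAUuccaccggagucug

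Compared per transcript length, the members ordered as follows. SNAI2 had a median of 42.3 RPKM (CPM divided by exon length in kilobases) over the 15 libraries, TWIST1 11.2, ZEB1 4.81, ESRP2 4.39, ESRP1 2.46 and ZEB2 1.51 RPKM. SNAI1 had 0.668, OVOL2 0.255, OVOL1 0.020 and GRHL2 0 RPKM. The ranges of ZEB1 (1.93 to 6.49 RPKM), ESRP2 (1.91 to 12.1 RPKM) and ESRP1 (0.0059 to 17.8 RPKM) overlapped, so their place relative to each other changed between libraries. SNAI2, at 37.0 to 47.3 RPKM, stood above every other member in all 15 libraries.

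**Figure D1:**
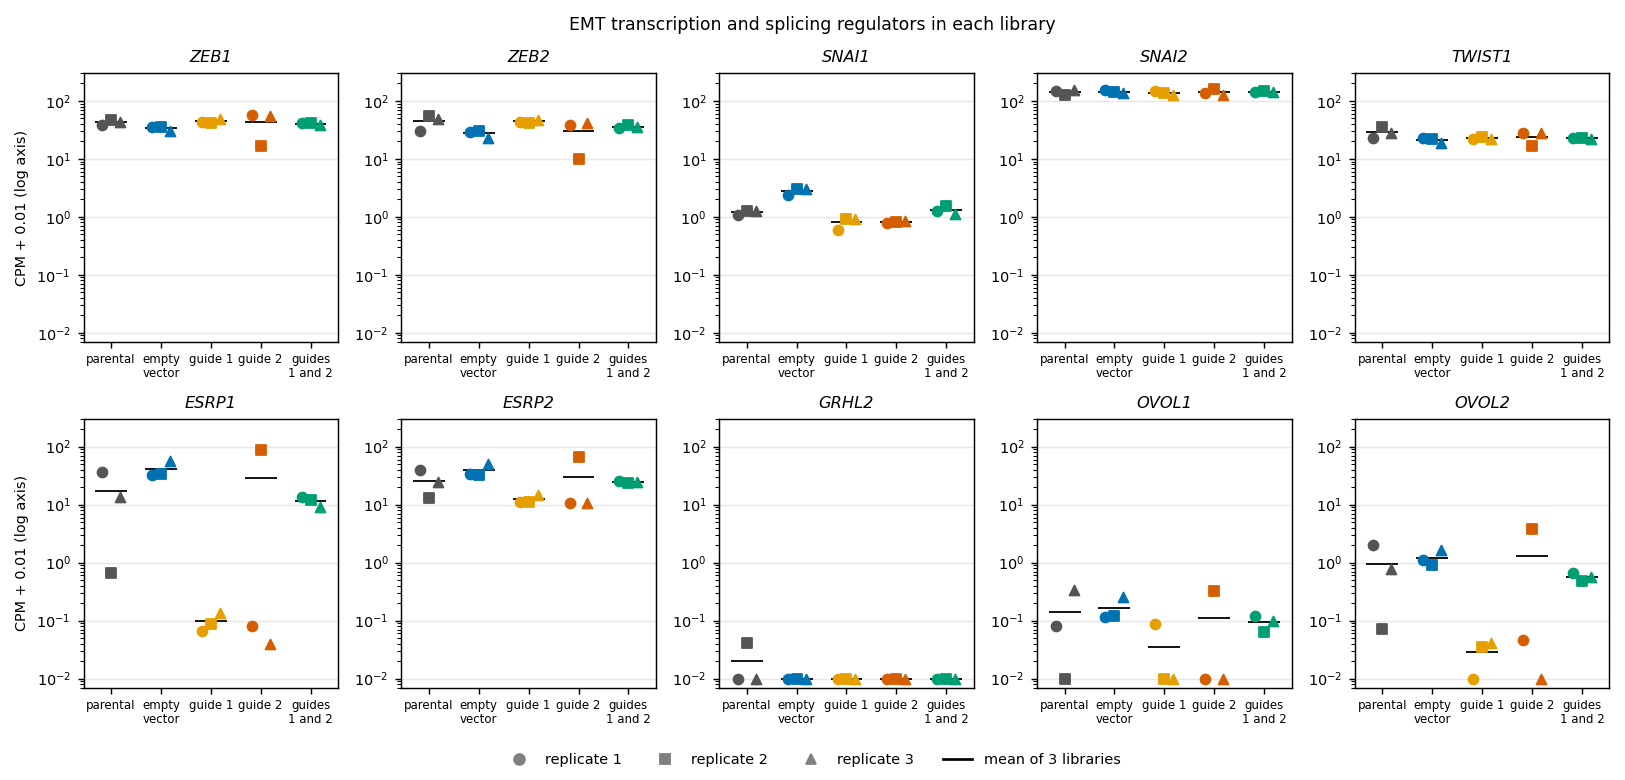
Level of each of the 10 regulators in CPM plus 0.01 on a log axis, by genotype; points are single libraries, with the marker giving the replicate number, and black lines are means of 3 libraries. SNAI1 is highest in the 3 empty vector libraries, SNAI2 is flat, and ESRP1, ESRP2 and OVOL2 are high in guide 2 replicate 2 and low in the other guide 2 libraries.

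SNAI1 (chromosome 20, 49982999 to 49988886, plus strand, GRCh38) encodes SNAIL, the repressor that can start an EMT. It was 2.42, 2.99 and 3.06 CPM with the empty vector and 1.05, 1.27 and 1.23 CPM in parental cells. The guide 1 libraries had 0.57, 0.90 and 0.90 CPM, the guide 2 libraries 0.78, 0.82 and 0.82 CPM, and those with both guides 1.24, 1.5 and 1.13 CPM. All 3 empty vector libraries lay above the other 12, and guide 1 and guide 2 lay below parental cells without overlap. These levels rest on 30 to 164 counts per library. Against the empty vector, SNAI1 was lower by a log2 fold change of -1.83 ± 0.21 (SE) with guide 1 (edgeR, adjusted p = 0.000845) and of -1.82 ± 0.21 with guide 2 (edgeR, adjusted p = 0.00133). With both guides the value was -1.15 ± 0.20 (edgeR, adjusted p = 0.0203), and in unedited parental cells it was -1.28 ± 0.20 (edgeR, adjusted p = 0.00635). Against parental cells, by contrast, the values were -0.55 ± 0.20 with guide 1, -0.54 ± 0.21 with guide 2 and 0.13 ± 0.20 with both guides, and none passed (edgeR, adjusted p = 0.200, 0.555 and 0.884). Unedited parental cells were thus also lower than the empty vector. In the guide 2 group SNAI1 did not follow the library that stood apart: the log2 range over its 3 libraries was 0.07, against 10.4 for ESRP1. The call with both guides was lost on leaving out empty vector replicate 2 or 3 or any replicate with both guides, with adjusted p-values from edgeR of 0.0615 to 0.129.

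ZEB1 (chromosome 10, 31318495 to 31529814, plus strand) represses E-cadherin and the miR-200 genes. It was 38.2, 46.7 and 43.1 CPM in parental cells and 35.7, 34.9 and 30.1 CPM with the empty vector. It was 43.7, 41.6 and 48.5 CPM with guide 1, and 41.3, 41.8 and 38.2 CPM with both guides. Guide 2 gave 56.1, 16.7 and 54.4 CPM. The empty vector libraries were below all libraries of the other genotypes except guide 2 replicate 2, which was the lowest of the 15. That library had 0.302 times the pooled level of the other guide 2 libraries (95% counting interval 0.282 to 0.324). With all libraries no comparison passed for ZEB1, including guide 1 against the empty vector at 0.40 ± 0.31 log2 units (edgeR, adjusted p = 0.492). Without guide 2 replicate 2, the value for guide 1 was nearly the same at 0.39 but its SE was 0.09, and it passed, as did guide 2 at 0.69 ± 0.09 and parental cells at 0.30 ± 0.09. Over all alternatives the adjusted p for guide 1 ran from 0.00729 to 0.773. Reads of ZEB1-AS1, an antisense gene with 88 to 165 counts per library that shares 248 exonic bases with ZEB1, cannot be told from those of ZEB1 without strand.

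ZEB2 (chromosome 2, 144364364 to 144524583, minus strand), the close relative of ZEB1, behaved much alike. It was 30.6, 54.2 and 49.1 CPM in parental cells, 29.5, 30.02 and 23.1 CPM with the empty vector, and 44.0, 41.2 and 47.1 CPM with guide 1. It was 37.8, 9.75 and 41.9 CPM with guide 2, and 34.6, 38.6 and 34.8 CPM with both guides. The empty vector libraries were again below every library of the other genotypes except guide 2 replicate 2, and parental replicate 1 was only just above them. No comparison passed with all libraries (guide 1 against the empty vector 0.67 ± 0.38 log2 units, edgeR, adjusted p = 0.335). Without guide 2 replicate 2, guide 1 at 0.66 ± 0.16 and parental cells at 0.65 ± 0.16 passed against the empty vector. Parental cells and guide 1 had ZEB2 means of 44.6 and 44.1 CPM, with parental libraries spread from 30.6 to 54.2 CPM. Guide 1 against parental cells was 0.004 ± 0.377 log2 units with all libraries (edgeR, adjusted p = 0.995).

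SNAI2 (chromosome 8) encodes SLUG. It was 147.9, 127.4 and 155.0 CPM in parental cells, 151.8, 144.8 and 138.6 CPM with the empty vector, and 145.5, 138.4 and 125.6 CPM with guide 1. Guide 2 gave 134.8, 160.5 and 127.1 CPM, and both guides gave 143.5, 146.8 and 140.3 CPM. All 5 genotypes overlapped. Its highest library was only 1.28 times its lowest, and no log2 fold change in the 8 comparisons was larger than 0.10 in size, with SEs of 0.06 to 0.09. Guide 2 replicate 2, the lowest library for ZEB1 and ZEB2, was the highest for SNAI2. The 2 SNAIL family members thus differed in level and in pattern, with SNAI3 at 3 counts or fewer in every library.

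TWIST1 (chromosome 7, 19020991 to 19117672, minus strand) was 23.2, 35.5 and 27.4 CPM in parental cells and 22.5, 22.1 and 19.0 CPM with the empty vector. Guide 1 gave 22.4, 23.6 and 22.3 CPM, guide 2 27.4, 16.5 and 28.1 CPM, and both guides 22.8, 22.9 and 21.8 CPM. Parental replicate 2 was the highest and guide 2 replicate 2 the lowest, as for ZEB2. The largest log2 fold change from the empty vector was that of parental cells, 0.41 ± 0.18 (edgeR, adjusted p = 0.243). It passed without guide 2 replicate 2, at 0.39 ± 0.12 (edgeR, adjusted p = 0.0472, with 0.00400 to 0.589 over all alternatives).

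ESRP1 (chromosome 8) had the widest range of the members. It was 37.3, 0.642 and 13.6 CPM in parental cells and 32.6, 33.9 and 57.3 CPM with the empty vector. With guide 1 it was 0.0574, 0.0760 and 0.127 CPM, which are 3 to 8 counts, with guide 2 it was 0.0723, 86.6 and 0.0289 CPM, and with both guides it was 13.7, 11.98 and 9.06 CPM. The 3 guide 1 libraries and guide 2 replicates 1 and 3 lay at or near the detection floor. Guide 2 replicate 2 was the highest of all 15, and parental replicate 2 lay between the groups at 41 counts. Pooled over its 3 libraries, the empty vector had 469 times the ESRP1 level of guide 1, with a 95% counting interval of 293 to 806. Guide 2 replicate 2 had 1797 times the pooled level of the other 2 guide 2 libraries (825 to 4900), a gap as wide between replicates as between genotypes. Parental replicate 1 had 58.0 times the level of parental replicate 2 (42.6 to 81.1). In the fit over all libraries, guide 1 was -8.86 ± 2.49 log2 units from the empty vector and just missed the threshold (edgeR, adjusted p = 0.0549). Over the alternatives that adjusted p ran from 3.0e-05 to 0.197, and 8 of 21 alternatives passed, including the fit without guide 2 replicate 2 at -8.87 ± 1.24. Without that library guide 2 also passed against the empty vector, at -9.71 ± 1.61, whereas both guides at -1.87 ± 0.76 and parental cells at -1.31 ± 0.74 did not.

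ESRP2 (chromosome 16, 68229111 to 68238102, minus strand), its paralog, was low and high in much the same libraries over a smaller range. It was 39.3, 12.9 and 24.7 CPM in parental cells, 34.1, 32.4 and 51.1 CPM with the empty vector, and 11.3, 11.2 and 14.7 CPM with guide 1. It was 10.6, 67.4 and 10.8 CPM with guide 2, and 25.4, 24.1 and 24.4 CPM with both guides. The empty vector libraries lay above guide 1 and above both guides without overlap. Guide 2 replicate 2 exceeded every other library, at 6.28 times the pooled level of the other guide 2 libraries (5.90 to 6.69). Unlike ESRP1, ESRP2 stayed well above the floor in all libraries, with 589 counts or more. Guide 1 was -1.67 ± 0.60 log2 units from the empty vector (edgeR, adjusted p = 0.125), and without guide 2 replicate 2 it was -1.68 ± 0.30 and passed. ESRP2 shares 149 exonic bases with NFATC3 on the opposite strand, a gene with 1530 to 2377 counts per library, and 35 with AC020978.5 on the same strand, so some of its low reads could belong to these genes.

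OVOL2 (chromosome 20, 17956979 to 18059188, minus strand) was 2.02, 0.0627 and 0.779 CPM in parental cells, 1.12, 0.885 and 1.62 CPM with the empty vector, and 0.650, 0.481 and 0.555 CPM with both guides. It was 0, 0.0253 and 0.0316 CPM with guide 1, no more than 2 counts a library, and 0.0361, 3.79 and 0 CPM with guide 2. The libraries under the floor for OVOL2 were those at or near it for ESRP1, and the same library was highest. The empty vector had 58.6 times the pooled level of guide 1 (22.5 to 217), and guide 2 replicate 2 had 236 times that of the other guide 2 libraries (64.5 to 1961). Guide 1 was -5.76 ± 1.93 log2 units from the empty vector with all libraries (edgeR, adjusted p = 0.102) and -5.77 ± 1.08, which passed, without guide 2 replicate 2. OVOL2 shares 59 exonic bases with SNX5 on the same strand, a gene with at least 6062 counts per library. How reads in that overlap were counted is not given in the sources used here.

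OVOL1 (chromosome 11, 65787022 to 65797219, plus strand) never exceeded 17 counts. It was 0.0702, 0 and 0.325 CPM in parental cells, 0.105, 0.111 and 0.242 CPM with the empty vector, and 0.0766, 0 and 0 CPM with guide 1. It was 0, 0.308 and 0 CPM with guide 2, and 0.108, 0.0535 and 0.0894 CPM with both guides. Guide 2 replicate 2, with 17 counts, was 12.8-fold above a floor of 3 counts taken over the other guide 2 pair. The 95% counting interval of its ratio to that pair, which had 0 counts, began at 9.31. No comparison of OVOL1 passed with or without that library.

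GRHL2 (chromosome 8) had 2 counts, 0.0313 CPM, in parental replicate 2 and none in the other 14 libraries. It was not tested, since it did not pass the filter on low counts, and 9 of the 10 members were tested. Its relative GRHL1 had 0.172 to 2.07 CPM, and GRHL3 had 0.649 to 5.13 CPM. GRHL3 was above the floor in every library, and so was GRHL1, so the grainyhead family was represented by these genes rather than by GRHL2.

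Orders within genotypes were read from the library with the most ESRP1. The library with the most ESRP1 in its genotype was also the highest for ESRP2 and OVOL2 in 5 of 5 genotypes, and for CDH1, which encodes E-cadherin, in 5 of 5. The same library was the lowest for ZEB2 in 4 of 5 genotypes, for TWIST1 in 4 of 5, and for ZEB1 in 3 of 5. In the guide 1 group, where ESRP1 was at the floor, the library with the most ESRP1 was instead the highest for ZEB1 and ZEB2. EPCAM, a surface protein of epithelial cells, was highest in that library in 4 of 5 genotypes, and the exception was guide 1. These orders are descriptions by CPM, with 3 libraries to a genotype. In guide 1 they rest on 3, 6 and 8 counts of ESRP1. OVOL2 had 0, 2 and 2 counts there, so its replicates 2 and 3 differ only by library total. With both guides OVOL2 had 30, 27 and 31 counts, so replicate 1 led by CPM and not by count.

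**Figure D2:**
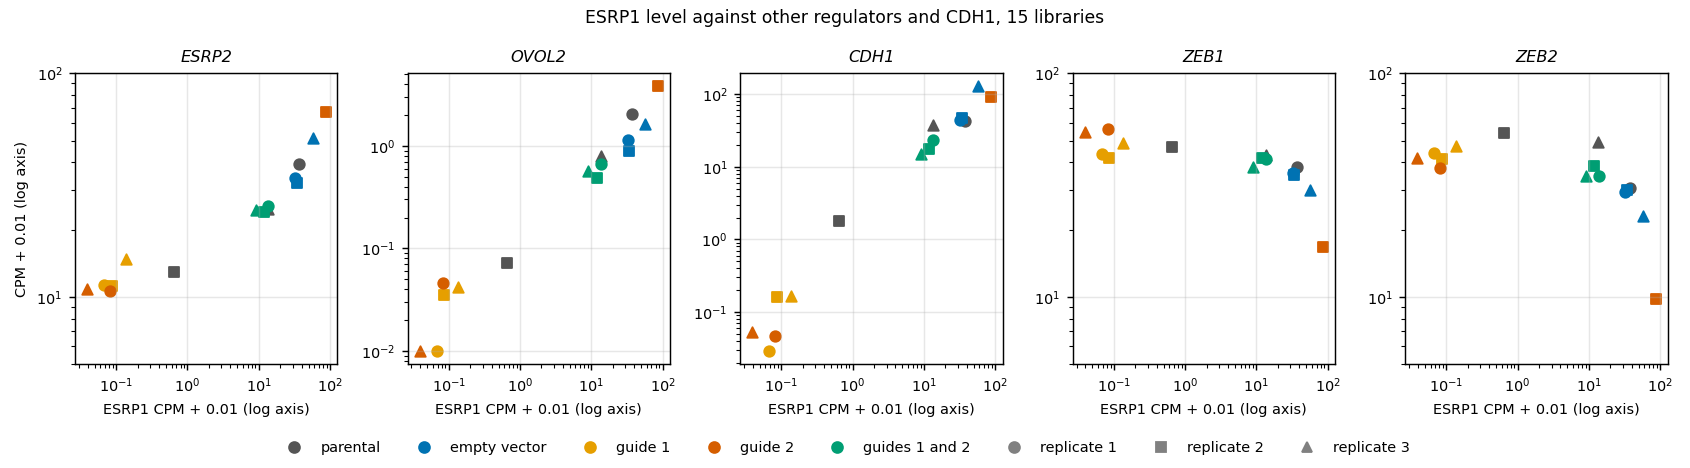
ESRP2, OVOL2, CDH1, ZEB1 and ZEB2 against ESRP1, each as CPM plus 0.01 on log axes; every point is 1 of the 15 libraries, with the colour giving the genotype and the marker the replicate. The 5 libraries with the least ESRP1 are the 3 of guide 1 and guide 2 replicates 1 and 3; guide 2 replicate 2, with the most ESRP1, has the least ZEB1 (16.7 CPM) and ZEB2 (9.75 CPM).

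The share of variance in log2 CPM that lay between genotypes set SNAI1 apart from the others. It was 93.4% for SNAI1, 60.6% for ESRP1, 49.5% for OVOL2, 40.1% for ESRP2, 33.4% for ZEB2, 30.1% for TWIST1, 26.5% for OVOL1, 12.1% for ZEB1 and 11.04% for SNAI2. The median of all tested genes was 39.8%. Without guide 2 replicate 2, the shares were 87.2% for ZEB1, 90.05% for ESRP1, 81.0% for OVOL2 and 78.3% for ESRP2, with a median of 53.8% over all genes. ZEB1 moved the most, from below the median gene to well above it, while SNAI1 stayed at 93.1%. SNAI2 remained below the median gene at 30.02%.

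In counts of members called, 1 of the 9 tested members, SNAI1, passed in guide 1 against the empty vector, where 5.88% of all 17457 tested genes were called. The same gene alone passed in guide 2 (3.94% of genes called), in both guides (0.962%) and in parental cells (4.37%), each against the empty vector. All 4 use the same empty vector libraries as control, so their common call is not independent. SNAI1 was also the only member called when the 3 edited lines were averaged and set against the average of the 2 controls, at -0.96 ± 0.13 log2 units (edgeR, adjusted p = 0.00563), where 1.51% of genes were called. Against parental cells no member passed in edgeR for guide 1 (0.149% of genes called), guide 2 (0.0516%) or both guides (0.195%). At an unadjusted p under 0.05 those counts were 3, 1 and 0 members, where 19.9%, 7.37% and 9.98% of all genes passed. DESeq2 called 2, 0 and 0 members. Of the genes to which it gave an adjusted p, it called 583 of 16137, 119 of 18876 and 322 of 18191. Voom with quality weights called 5, 6 and 2, but it also called 52.9%, 32.5% and 21.3% of all genes.

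Without guide 2 replicate 2, more members passed, and so did more genes in general. SNAI1, ESRP1, ESRP2, OVOL2, ZEB1 and ZEB2 were called for guide 1 against the empty vector, 6 members where 18.1% of 17849 genes were called. For guide 2 it was 5, the same without ZEB2 (14.5% of genes). For parental cells it was 4, namely SNAI1, TWIST1, ZEB1 and ZEB2 (13.9%), and for both guides SNAI1 alone (6.7%). Against parental cells, ESRP1, ESRP2 and OVOL2 were lower with guide 1 (14.5% of genes called), at -7.56 ± 1.24, -1.02 ± 0.29 and -5.37 ± 1.10 log2 units. The same 3 genes were lower with guide 2 and ZEB1 was higher, at 0.39 ± 0.09 (5.96%), whereas no member passed with both guides in edgeR (2.62%), and 1, TWIST1, had an unadjusted p under 0.05. With edited lines and controls averaged, 5 members passed where 18% of genes did. In this fit the epithelial members called in the guide 1 and guide 2 comparisons were all lower and the ZEB genes called were all higher, while in parental cells against the empty vector ZEB1, ZEB2 and TWIST1 were called higher and no epithelial member was called.

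**Figure D3:**
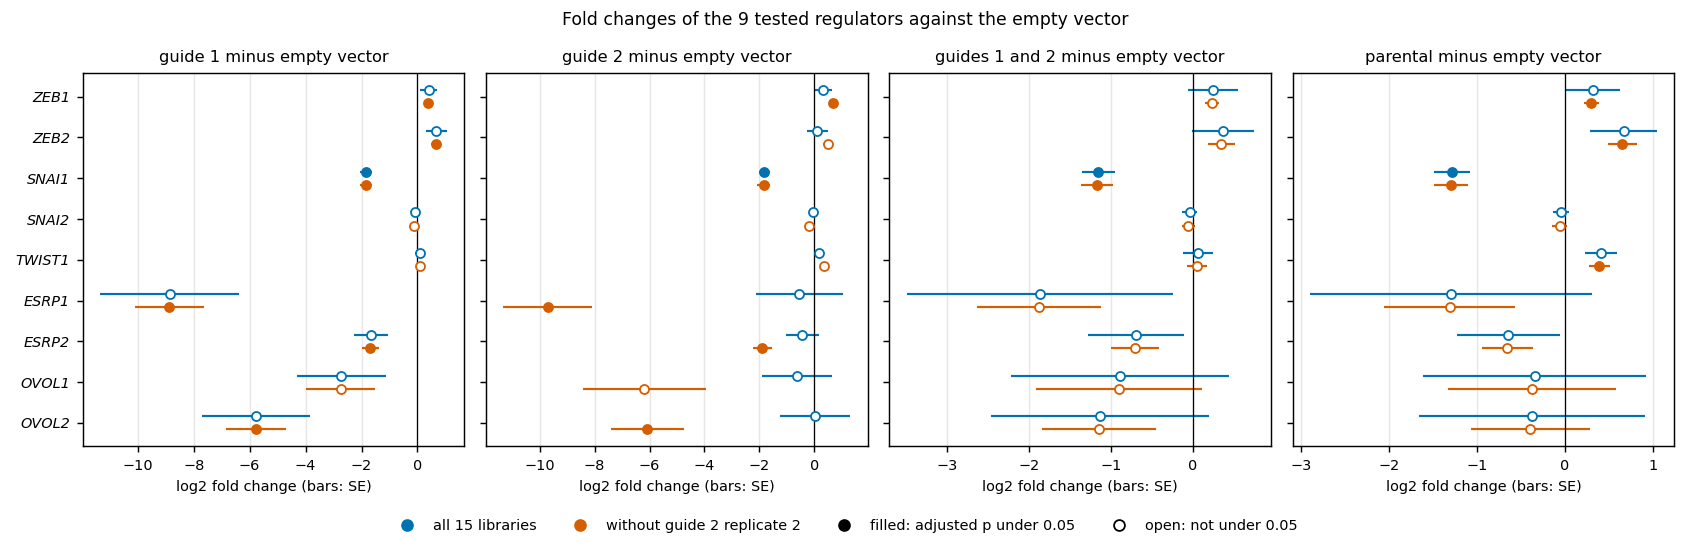
Log2 fold changes of the 9 tested regulators against the empty vector, in 4 panels with their own horizontal scales; bars are standard errors, blue is the fit with all 15 libraries and orange the fit without guide 2 replicate 2, and filled points have an adjusted p under 0.05 in edgeR. SNAI1 is filled in all panels, and for guide 2 ESRP1 moves from -0.55 to -9.71 when that library is left out.

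A list of 14 epithelial genes, known targets of the SNAIL, ZEB and GRHL2 proteins, was followed next. In guide 1 against the empty vector 5 of the 14 fell (4.57% of all genes were called lower), none rose, and their median log2 fold change was -2.53, against 0.02 over all genes. CDH1 was 42.9, 1.79 and 37.8 CPM in parental cells, 44.1, 46.8 and 127 CPM with the empty vector, and 0.0191, 0.152 and 0.158 CPM with guide 1. It was 0.0361, 91.4 and 0.0434 CPM with guide 2, and 23.4, 17.3 and 14.8 CPM with both guides, low and high in the same libraries as ESRP1. Its log2 fold change for guide 1 was -9.27 ± 2.45 (edgeR, adjusted p = 0.0446). ST14, the membrane protease matriptase, at -5.30 ± 1.40, and DSP, the desmosome protein desmoplakin, at -2.47 ± 0.66, fell with it. With the replicate number as a block, only RAB25 and SPINT1, described next, were called of the 14 (3.25% of genes called in either direction). That block was fitted to all 15 libraries, though same-numbered replicates correlated over 0.1 throughout only between guide 1 and the empty vector (0.136 to 0.280). CDH1, ST14 and DSP then had adjusted p-values of 0.0874, 0.0865 and 0.0883 in edgeR. In guide 2 replicate 2, 13 of the 14 genes were at their highest within guide 2, and EPCAM reached 102.6 CPM against 2.62 and 2.67 CPM in the other guide 2 libraries. The share of all genes highest there is not given, and 76.6% and 76.8% of genes differed between that library and its replicates.

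RAB25 and SPINT1, like SNAI1, were highest with the empty vector. RAB25, a GTPase of apical recycling whose promoter window is printed above, was 1.75, 1.73 and 3.86 CPM with the empty vector, 0.715, 0.588 and 0.483 CPM with both guides, and 0, 0.0627 and 0.390 CPM in parental cells. It had 3 counts or fewer in every guide 1 and guide 2 library, including 0 in guide 2 replicate 2, the only gene of the 14 not highest there. SPINT1, an inhibitor of matriptase, was 96.6, 101 and 120 CPM with the empty vector and no more than 53.4 CPM in any other library; within guide 2 it was highest in replicate 2, unlike RAB25. Both genes were lower than the empty vector in guide 1, guide 2 and parental cells. SPINT1 was at -1.55 ± 0.20 with guide 1, -1.55 ± 0.20 with guide 2, -1.14 ± 0.20 with both guides and -1.20 ± 0.20 in parental cells. RAB25 was at -7.16 ± 1.05 with guide 1 and -4.14 ± 0.81 in parental cells. These were the only 2 of the 14 called in guide 2 (2.73% of genes called lower) and in parental cells (2.84%), and SPINT1 the only one with both guides (0.693%). Without guide 2 replicate 2, 14 of the 14 were lower in guide 1 (11.7% of genes called lower) and 13 in guide 2 (9.42%).

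**Figure D4:**
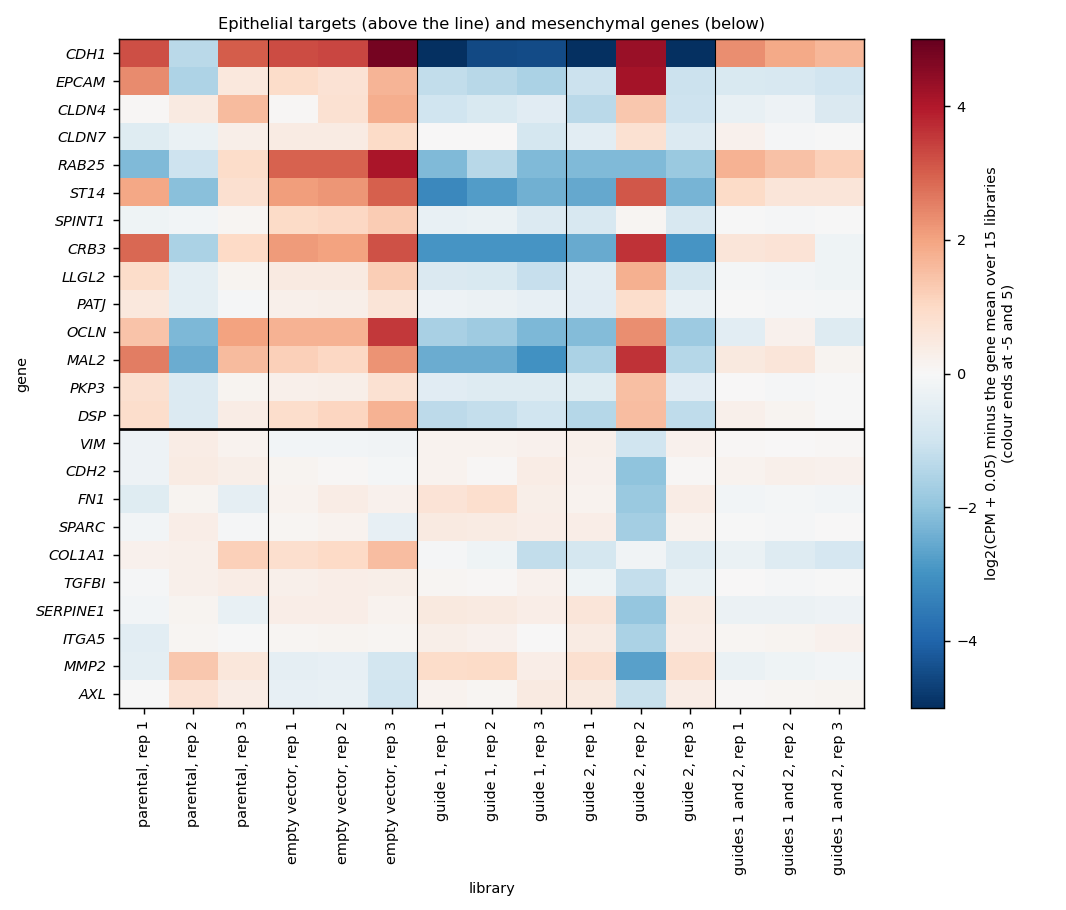
The 14 epithelial target genes (above the line) and the 10 mesenchymal genes that reach 1 CPM (below), as log2(CPM + 0.05) minus the gene's mean over the 15 libraries, which are the columns; red is above the mean and blue below, with the colour ending at -5 and 5. Most epithelial genes are blue in guide 1, in guide 2 replicates 1 and 3 and in parental replicate 2, and RAB25 is red in the empty vector libraries and blue in guide 2 replicate 2.

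With all libraries in the fit, calls among the 13 mesenchymal genes were few. Tests of this list without guide 2 replicate 2 are not given. VIM, the intermediate filament vimentin, was 1466 to 2289 CPM in parental cells, 1543 to 1599 CPM with the empty vector and 1947 to 2051 CPM with guide 1. It was 2107, 866 and 2007 CPM with guide 2 and 1749 to 1834 CPM with both guides. VIM passed in no comparison with all libraries. Its guide 1 libraries lay above the empty vector libraries without overlap, and the parental range spanned both. Of the 12 tested, 1 fell in guide 1 against the empty vector, where 4.57% of all genes were called lower. None rose, where 228 of 17457 genes were called higher. The list's median was 0.15 log2 units, against 0.02 over all genes. The gene that fell was COL1A1, a collagen chain, at -1.61 ± 0.34 with guide 1, -1.74 ± 0.34 with guide 2 and -1.81 ± 0.34 with both guides. TGFBI fell in guide 2 at -0.84 ± 0.19, and COL1A2, at 0.548 CPM or less, was higher in parental cells than with the empty vector at 2.15 ± 0.37. COL1A2 was also lower than in parental cells with guide 1 at -2.47 ± 0.37 and with both guides at -2.66 ± 0.39. With the replicate number as a block, COL1A1 was still called in guide 1 and guide 2 against the empty vector. So was COL1A2 in parental cells against the empty vector and with both guides against parental cells. Block results for the other calls of this list are not given. In guide 2 replicate 2, 9 of the 13 were at their lowest within guide 2, and the share of all genes lowest there is not given.

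Of 10 further EMT transcription factors 8 were tested, and TCF4, a basic helix-loop-helix factor, was higher than with the empty vector in guide 1 at 0.44 ± 0.09 and in parental cells at 0.46 ± 0.09. HMGA2, a chromatin protein, was higher in guide 2 at 0.40 ± 0.09 and in the mean of the edited lines at 0.29 ± 0.06. In guide 2 against the empty vector, 6 of the 8 had an unadjusted p under 0.05, 5 of them higher (9.26% of all genes were higher at that threshold), and the list's median was 0.30 against 0.03 over all genes. With guide 2 replicate 2 left out, 4 of the 8 were called higher there, where 900 of 17849 genes were called higher. TWIST2 was 16.7 to 27.9 CPM and PRRX1 no more than 0.289 CPM. Of the 7 corepressors that the ZEB and SNAIL proteins recruit, such as CTBP1, KDM1A and HDAC1, none passed in any of the 8 comparisons in edgeR with all libraries. The most with an unadjusted p under 0.05 in a comparison was 3 of the 7, in guide 1 against parental cells, where 19.9% of all genes passed. Their summed level was 823 to 985 CPM over all libraries.

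Among 12 further epithelial transcription factors 10 were tested, and GRHL1 was lower in guide 1 than with the empty vector at -2.12 ± 0.56 log2 units (edgeR, adjusted p = 0.0433). The list's median there was -0.82, and 7 of its genes had an unadjusted p under 0.05, all lower (12.7% of all genes were lower at that threshold). TP63, a master factor of basal epithelium, was 43.1, 41.4 and 68.0 CPM with the empty vector and 0.142 to 0.203 CPM with guide 1. It did not pass with all libraries. Without guide 2 replicate 2, 6 of the 10 were called lower in guide 1, where 11.7% of genes were. With the replicate number as a block, GRHL1 did not pass (edgeR, adjusted p = 0.0656), and neither did any other gene of the list.

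On the splicing side, none of 9 further splicing factors, including RBM47, RBFOX2, QKI and MBNL1, passed in any of the 8 comparisons in edgeR with all libraries. At an unadjusted p under 0.05 there were at most 6 of the 9, in guide 1 against parental cells, where 19.9% of all genes passed. In guide 2 replicate 2, 7 of the 9 were at their highest within guide 2. The others were RBFOX2 and RBM47, an epithelial splicing factor at 4.51 to 10.3 CPM, and both were lowest there. The share of all genes highest in that library is not given, so a link of these orders to ESRP1 was not tested. None of the 6 genes whose transcripts ESRP proteins splice passed in gene total with all libraries. At most 2 had an unadjusted p under 0.05 in a comparison, where 7.37% to 21.4% of all genes did over the 8 comparisons. FGFR2 was 4.18, 4.59 and 7.03 CPM with the empty vector and 0.709 to 0.823 CPM with guide 1. Gene totals do not show splice forms, which were not measured.

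Of the host RNAs of microRNAs that restrain ZEB1 and ZEB2, MIR200CHG was highest in the 3 empty vector libraries. It was 0.648, 0.830 and 0.690 CPM with the empty vector, 0.143 to 0.285 CPM with both guides, and 0.0783 to 0.195 CPM in parental cells. It had 2 to 4 counts in the guide 1 libraries and 0, 15 and 2 counts with guide 2. It was lower than with the empty vector in guide 1 at -3.91 ± 0.79 (edgeR, adjusted p = 0.0149) and in guide 2 at -2.88 ± 0.72 (edgeR, adjusted p = 0.0430). MIR205HG was more abundant, at 110 to 126 CPM with the empty vector and 54.0 to 71.0 CPM with guide 1. With guide 2 it was 15.7, 125 and 15.8 CPM, high in the library where ZEB1 and ZEB2 were lowest, and it did not pass with all libraries.

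By likeness of pattern, the genes outside the members with the highest Pearson r of log2 CPM over the 15 libraries, at a mean log2 CPM of 1 or more, were the following. For ESRP1 they were TP63 (r = 0.994), LAD1 (0.992) and CDH1 (0.990), for ESRP2 TGFA (0.991), IL1RAP (0.988) and CKMT1A (0.988), and for OVOL2 TGFA (0.985), MARVELD2 (0.985) and CKMT1A (0.985). For ZEB1 they were LHFPL6 (0.975), CFL2 (0.973) and FADS1 (0.973), and for ZEB2 FKBP7 (0.972), MPP1 (0.968) and NRP1 (0.968). For SNAI1 they were MAPKAPK2 (0.936), TAB2 (0.926) and CELSR1 (0.925), and for TWIST1 ZNF362 (0.908), PTGER2 (0.902) and GABPB2 (0.901). OVOL1 was most like FGFR2 (0.888), SOX15 (0.884) and ELMO3 (0.882), and SNAI2 most like UQCC6 (0.845), ALS2CL (0.825) and DTX4 (0.820). ESRP2 and OVOL2 shared TGFA and CKMT1A. The libraries share genotypes and fall into clusters of high and low ESRP1, so these values describe likeness only. Leaving out the 2 libraries farthest from the median of the member left r at 0.989 or more for the 3 genes like ESRP1 and lowered ALS2CL to 0.681 for SNAI2.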

How the data were processed

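Poly(A) RNA was sequenced in 15 libraries, 5 genotypes of 3. The authors deposited whole-number counts per gene and CPM, per the labels. The CPM equal counts over library totals to within 4.91e-11. Reads were trimmed with Trim Galore 0.6.0 and aligned with STAR 2.7.8a to GRCh38, per the submitters' processing notes; the use of strand is not given in the sources used here. Lengths and positions come from GENCODE 29 on GRCh38, and RPKM was computed from counts and exon length. Promoters and microRNAs come from RefSeq (GRCh38.p14).

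The members and gene lists were chosen with earlier results of these data known. Named are all members, the listed genes called (for long lists the extremes), CDH1, EPCAM, VIM and the 3 genes most like each member; TP63, FGFR2 and other uncalled genes were named after their values were seen. Counts were filtered with filterByExpr, leaving 17457 genes, scaled by TMM and fitted with edgeR 4.0.16 (quasi-likelihood, 1 group-means model, 10 residual degrees of freedom, R 4.3.3). Tests were two-sided. P-values were adjusted by Benjamini-Hochberg over all genes tested, and a gene was called at an adjusted p under 0.05. SE is the log2 fold change over the root of F. Alternatives were RLE scaling, no filter, a replicate block, DESeq2 1.42.0, voom with quality weights (limma 3.58.1), only the compared groups, and leaving out each library. Same-numbered replicates correlated over 0.1 in all 3 pairs for the empty vector and guide 1 only (0.136 to 0.280). Over all 30 same-numbered pairs the mean was -0.050, with values from -0.75 to 0.28. The group-means model has no block, and the block among the alternatives was applied to all 15 libraries.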

Additional observations from a re-analysis of the deposited data

How the results depend on the processing

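Each of the 8 member counts was recomputed under 21 alternatives, or 20 for the mean of the edited lines; 139 of 167 values stayed within 1.5 times the count with all libraries and 28 did not. RLE scaling and the replicate block changed no member count; the block lowered the count of epithelial targets called for guide 1 against the empty vector from 5 to 2, and that of all genes called from 5.88% to 3.25%. With the block, small values for guide 2 changed sign: against parental cells ESRP1 was -0.071, OVOL2 -0.11 and ZEB1 -0.044, and against the empty vector OVOL2 was -0.46. Without the low-count filter 2 members were called for guide 1 against the empty vector, ESRP1 being added. DESeq2 called 3 there (1847 of the 19562 genes with an adjusted p) and 2 for guide 1 against parental cells. Voom with quality weights called 6 members for guide 1, 9 for guide 2, 3 for both guides and 6 for parental cells against the empty vector, where it called 42.5%, 33.2%, 26.7% and 36.3% of all genes. Against parental cells it called 5 for guide 1, 6 for guide 2 and 2 for both guides, and it called 7 with edited lines and controls averaged (42% of genes). In voom, guide 2 against parental cells was -7.40 for ESRP1, -1.08 for ESRP2 and -5.01 for OVOL2. Against the empty vector OVOL2 was -5.76 for guide 2. These values had the opposite sign to edgeR with all libraries. The voom fit gave guide 2 replicate 2 a sample weight of 0.052, against 0.199 to 3.82 for the other libraries. With only the compared groups fitted, 6 were called for guide 1, 0 for guide 2 (SNAI1 at -1.83, adjusted p = 0.0505 in edgeR) and 5 for both guides, each against the empty vector, where 15.8%, 0.0794% and 18.7% of genes were called; this leaves fewer libraries.

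Leaving out each library in turn, the counts against the empty vector ran from 1 to 6 for guide 1, 1 to 5 for guide 2, 0 to 1 for both guides and 1 to 4 for parental cells. Against parental cells they ran from 0 to 3 for guide 1, 0 to 4 for guide 2 and stayed at 0 for both guides, and for the mean of the edited lines they ran from 1 to 5. The upper end was without guide 2 replicate 2 wherever it exceeded 1. The guide 1 count was also 2 without parental replicate 2 or guide 2 replicate 1, and 3 without guide 2 replicate 3. Log2 fold changes for guide 2 ran from -9.71 to 0.026 for ESRP1 and from -6.08 to 0.62 for OVOL2 against the empty vector. Against parental cells they ran from -8.40 to 2.05 for ESRP1, from -1.24 to 0.67 for ESRP2, from -5.68 to 1.65 for OVOL2 and from -0.25 to 0.39 for ZEB1. For guide 1 against the empty vector SNAI1 passed under all 21 alternatives (-1.98 to -1.67). Beyond the construction of each alternative, the cause was not tested.

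Depth limits GRHL2 and OVOL1, which never exceed 17 counts, and it limits ESRP1 and OVOL2 in guide 1 and in guide 2 replicates 1 and 3, at 0 to 8 counts per library.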
